A study of Mus musculus with 18 samples.

Results

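Transcription factors that drive or mark the formation of fat cells were followed through 10 genes, Pparg, Cebpa, Cebpb, Cebpd, Rxra, Klf15, Ebf1, Ebf2, Nr1h3 and Zfp423. They were listed by name, by no threshold on the values measured here but with earlier results of these data known, and are 10 of the 33440 genes to which the reads were summed. All 10 passed the filter on low counts in both experiments. RNA was sequenced in 18 libraries from C57BL/6 mice. In the first experiment, cells of the stromal vascular fraction (SVF) of inguinal white fat were taken from IRF3-2D mice, which carry a constitutively active form of IRF3 that stays silent until Cre acts. The cells were differentiated in culture and given an adeno-associated virus (AAV) with Cre (FI3OE, n = 3) or with GFP alone (WT, n = 3). WT cells thus kept the silent allele, and Cre itself differed between the groups. Both groups were differentiated with insulin, dexamethasone, IBMX and rosiglitazone, and kept in insulin and rosiglitazone, an agonist of PPARγ, the protein made from Pparg. In the second experiment, adipocyte RNA was taken by translating ribosome affinity purification (TRAP) from epididymal white fat (eWAT) of mice without Irf3 in adipocytes (FI3KO, n = 6) and of WT mice (n = 6). In TRAP, ribosomes that carry a GFP tag in adipocytes are pulled down with an antibody. Adipoq-Cre drives the deletion in the study's strains, and the mice of all 12 libraries were fed a high-fat diet (HFD) for 8 weeks at thermoneutrality. The labels give neither the age of these mice nor whether each library came from a separate animal or culture, so p-values measure the spread between these libraries.

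Fat cells form through a cascade. C/EBPβ and C/EBPδ, from Cebpb and Cebpd, act early after the hormonal stimulus and switch on Pparg and Cebpa, whose products then maintain each other and most genes of the mature adipocyte. PPARγ binds DNA as a heterodimer with RXRα, from Rxra. Zfp423 marks cells committed to the lineage, the EBF proteins act beside PPARγ, with EBF2 linked to the brown and beige programme, Klf15 is induced by glucocorticoids, and Nr1h3 encodes LXRα, the oxysterol receptor that also pairs with RXRα.

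The libraries held 21541334 to 40490283 estimated reads. Levels are given as CPM, the reads of a gene relative to all reads of its library, and a gene was called where its adjusted p was 0.05 or less in the quasi-likelihood test of edgeR, with Benjamini-Hochberg adjustment over all genes tested. The labels were checked on Irf3 itself. It had 90.8 to 100.3 CPM in FI3OE cultures and 56.8 to 58.6 in WT cultures (log2 fold change 0.73, adjusted p = 3.30e-07 in edgeR, and 0.46 with an offset for transcript length). In TRAP it had 12.4 to 18.8 CPM in FI3KO and 17.2 to 23.2 in WT (log2 fold change -0.35, adjusted p = 0.0198 in edgeR), while the deposited TPM ran the other way, as did a fit with an offset for transcript length (log2 fold change 0.71). Within replicates 1 and 2 alone Irf3 was not called (log2 fold change -0.18, adjusted p = 0.452 in edgeR). The authors' effective length for Irf3, which enters the length correction, was 380.5 to 531.2 bases in FI3KO and 876.4 to 956.9 in WT. In TRAP the check on Irf3 therefore gave no single direction. Which exons the deletion removes was not analysed here. WT TRAP replicates 1 and 2 resembled each other more than any other pair of TRAP libraries of 1 genotype, with a chi-square per gene of 2.54 against 8.41 to 267.9. Pairs across genotypes were not compared. They still differed by more than counting noise and were kept as separate libraries. On the first principal component, which held 57.8% of the TRAP variance, replicates 1 and 2 of both genotypes lay between replicates 3 to 6 of WT and of FI3KO. TRAP results are therefore also given within replicates 3 to 6. Marker sums moved with these sets. The 8 preadipocyte and fibroblast markers summed to 1030 to 1517 CPM in WT replicates 3 to 6 and 126.0 to 255.1 CPM in FI3KO replicates 3 to 6, but to 522.6 to 529.9 and 444.0 to 533.5 CPM in replicates 1 and 2. Col1a1 held most of these sums on average, with means of 1005 CPM in WT and 271 CPM in FI3KO over 6 libraries each. Of the 6 of these markers tested 2 were called lower in FI3KO, Col1a1 and Dpp4, and 4 were not called. The 14 macrophage markers summed to 80.2 to 115.1 CPM in WT and at most 20.3 CPM in FI3KO in replicates 3 to 6, and to 43.2 to 44.0 and 38.6 to 50.6 CPM in replicates 1 and 2, with Fcgr1 at 3 reads or fewer in every FI3KO library. The 6 endothelial markers summed to 45.4 and 88.7 CPM in FI3KO replicates 1 and 2, and to 18.6 to 44.9 CPM in the other 10 TRAP libraries. The 8 adipocyte markers summed to between 23524 and 31122 CPM in all 12, with 4 of them called higher and 1, Lep, lower in FI3KO.

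The order of the 10 genes in the WT groups was taken from TPM, which corrects for transcript length. In WT SVF-derived adipocytes Cebpa was highest, at 578 ± 11.1 TPM (SD, n = 3), followed by Cebpb at 375 ± 15.3 and Pparg at 307 ± 8.26 TPM. Ebf1 came next at 149.9 ± 12.5 TPM, then Nr1h3 at 96.5 ± 2.36, Rxra at 87.2 ± 4.32 and Klf15 at 81.2 ± 4.01 TPM. Ebf2 (41.4 ± 2.21 TPM), Zfp423 (38.4 ± 5.36 TPM) and Cebpd (19.1 ± 1.11 TPM) were the lowest. Neighbours in this order did not overlap between libraries, except Rxra with Klf15 and Ebf2 with Zfp423. The place of Cebpb rests on the length correction. The authors' mean effective length for it was 317 bases, against 1504 annotated. Per kilobase of the annotated main transcript Cebpb had 41.2 ± 2.47 CPM, behind Cebpa (163.5 ± 2.80) and Pparg (140.4 ± 3.85), and close to Ebf1 (40.0 ± 1.86).

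In WT eWAT TRAP RNA the same 3 genes led by TPM, with Cebpa at 1357 ± 137, Cebpb at 379 ± 56.9 and Pparg at 246 ± 19.5 TPM (SD, n = 6). Nr1h3 (156.5 ± 18.9 TPM), Rxra (137.0 ± 14.9), Zfp423 (105.7 ± 19.6), Klf15 (87.9 ± 17.6) and Ebf1 (79.5 ± 13.2) followed, each overlapping the next between libraries. Ebf2 (12.2 ± 1.70 TPM) and Cebpd (6.24 ± 2.58 TPM) were well below all the rest. Per kilobase of annotated length Cebpb moved from rank 2 to rank 5, at 37.6 ± 5.87 CPM. Cebpa, Zfp423, Nr1h3 and Rxra were higher in every WT TRAP library than in any WT culture, with TPM ratios of 2.35, 2.75, 1.62 and 1.57, and Ebf2, Cebpd, Ebf1 and Pparg were lower, with the cultures 3.39, 3.07, 1.89 and 1.25 times higher. Cebpb and Klf15 overlapped. Fat depot, culture, diet and ribosome pull-down all differ between these WT groups and cannot be told apart, so no test was made.

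**Figure D1:**
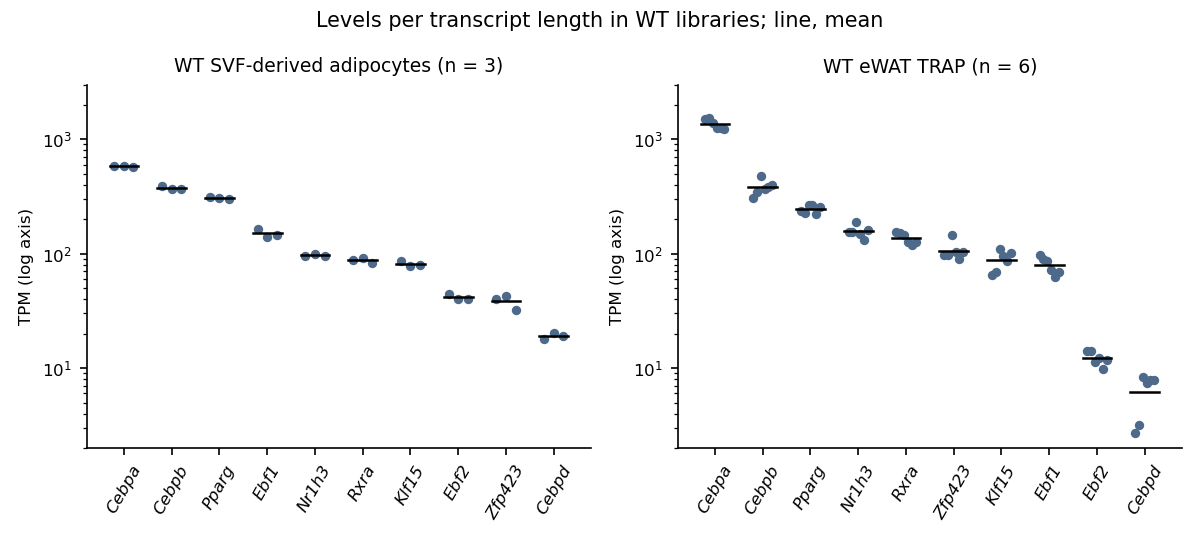
TPM of each gene (log axis) in the 3 WT SVF-derived adipocyte libraries and the 6 WT eWAT TRAP libraries, ordered by mean; points are libraries and lines are means. Cebpa leads in both, and 2 of the 6 TRAP libraries lie far below the others for Cebpd.

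The first comparison asks whether active IRF3 changes these regulators in cultured adipocytes. Pparg, Cebpa, Cebpb and Rxra were not called, whereas Klf15, Ebf1, Ebf2 and Zfp423 fell by 0.33 to 0.54 on the log2 scale and Nr1h3 and, weakly, Cebpd rose. In all 6 of 10 genes were called, 2 higher and 4 lower. Over all 16105 genes tested 37% were called, 20.2% higher and 16.8% lower, so that a call is common in this experiment. None of the 10 reached an absolute log2 fold change of 1, which together with the adjusted p held for 3.62% of all genes. The median log2 fold change of the 10 genes was 0.0088, and that of all genes -0.0047. The share of all genes whose groups do not overlap is not given here for either experiment. Separate groups are therefore not read as a result particular to these genes. When the more variable TRAP libraries shared the estimate of the spread, in 1 edgeR fit of all 18 libraries, none of the 10 was called (adjusted p 0.0556 for Nr1h3 to 0.217 for Ebf1 among the genes without overlap), although 5 had an unadjusted p under 0.05.

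**Figure D2:**
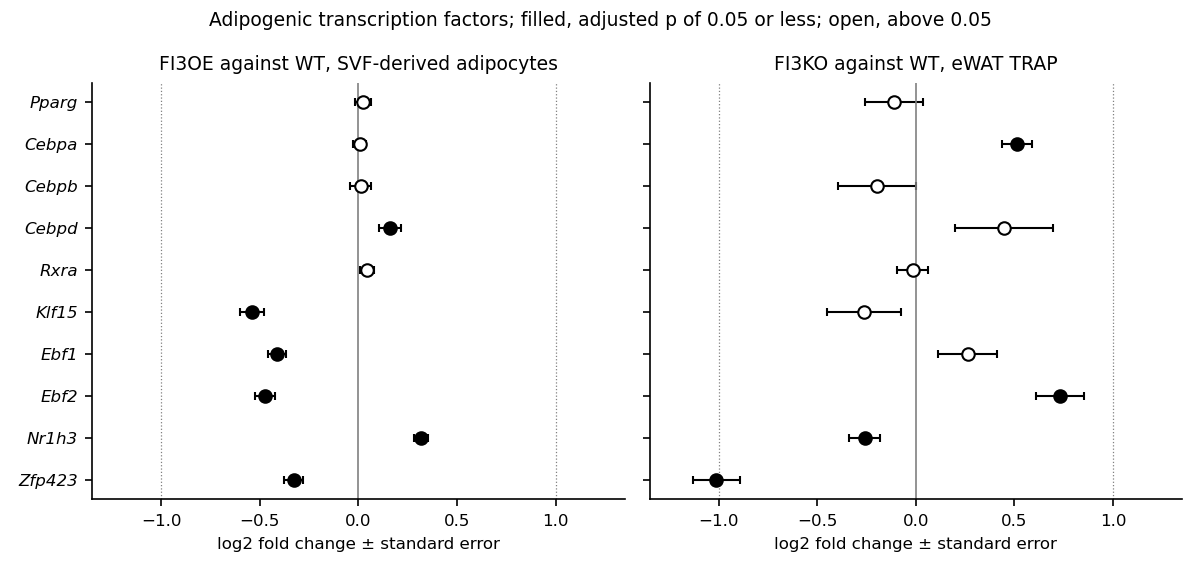
Log2 fold change with its standard error from edgeR for the 10 genes, FI3OE against WT in SVF-derived adipocytes (left) and FI3KO against WT in eWAT TRAP (right); filled points have an adjusted p of 0.05 or less and dotted lines mark the fold-change cutoff of 1. Zfp423 alone reaches the cutoff, in TRAP, and Ebf2 and Nr1h3 lie on opposite sides of 0 in the panels.

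Pparg (chr6:115360951-115490399 in GRCm38, plus strand) had 255.2, 241.6 and 247.6 CPM in WT replicates 1 to 3 and 241.3, 259.8 and 246.8 CPM in FI3OE. The groups overlapped fully (log2 fold change 0.02, standard error 0.041, adjusted p = 0.686 in edgeR). Cebpa (chr7:35119293-35121928) had 420.8 to 433.7 CPM in WT and 422.6 to 429.6 CPM in FI3OE (log2 fold change 0.01, standard error 0.033, adjusted p = 0.896 in edgeR). For Rxra (chr2:27676440-27762957) the ranges were 162.2 to 171.1 and 169.3 to 172.1 CPM (log2 fold change 0.04, standard error 0.036, adjusted p = 0.391 in edgeR).

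Cebpb (chr2:167688915-167690418), an intronless gene, also overlapped, with 58.8 to 66.0 CPM in WT and 57.6 to 63.9 CPM in FI3OE (log2 fold change 0.01, standard error 0.052, adjusted p = 0.893 in edgeR). The Nextera XT libraries do not mark strand, so reads from the stretch where Tmem189 overlaps it on the other strand cannot be told apart by strand. Cebpd (chr16:15887286-15891031) had 34.2, 37.8 and 35.9 CPM in WT and 37.8, 40.0 and 40.9 CPM in FI3OE. The groups just overlapped, and the small rise (log2 fold change 0.16, standard error 0.055, adjusted p = 0.0413 in edgeR) passed the threshold in edgeR but not in DESeq2 (adjusted p = 0.0987), nor without FI3OE replicate 2 or 3 or WT replicate 1 or 3 (adjusted p 0.0813 to 0.145 in edgeR). Spidr overlaps Cebpd on the opposite strand and had 26.3 CPM in WT and 30.2 in FI3OE on average.

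Klf15 (chr6:90462576-90475238), a Krüppel-like factor that promotes adipogenesis and the expression of Slc2a4, was lower in FI3OE. It had 76.2, 67.6 and 72.5 CPM in WT and 48.6, 45.04 and 53.0 CPM in FI3OE. All FI3OE libraries lay below all WT libraries, and the log2 fold change was -0.54 (adjusted p = 3.07e-05 in edgeR, standard error 0.060).

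Both EBF genes were lower. Ebf1 (chr11:44617317-45008091) fell from 251.5, 229.6 and 237.1 CPM to 187.7, 166.3 and 179.3 CPM (log2 fold change -0.41, standard error 0.047, adjusted p = 3.83e-05 in edgeR). Ebf2 (chr14:67233292-67430918) fell from 71.8, 66.4 and 68.2 CPM to 50.4, 51.1 and 45.7 CPM (log2 fold change -0.47, standard error 0.051, adjusted p = 2.165e-05 in edgeR). Zfp423 (chr8:87661810-87959595, minus strand), a zinc finger factor of committed preadipocytes, fell from 52.6, 53.0 and 48.9 CPM to 39.0, 41.2 and 41.2 CPM (log2 fold change -0.33, standard error 0.048, adjusted p = 0.00023 in edgeR), or by 0.51 on the log2 scale with an offset for transcript length. For all 3 genes the groups were fully separate. The sums of the preadipocyte and fibroblast markers were separate too, at 7493 to 7735 CPM in WT and 7043 to 7180 CPM in FI3OE. Col1a1 held most of these sums, at 6839 CPM in WT and 6384 CPM in FI3OE on average (log2 fold change -0.08). Of the 8 markers 2 were called higher and 2 lower, with a median log2 fold change of 0.12. The part of these markers in these results was not tested. In such bulk RNA fewer cells of a type and less RNA per cell cannot be told apart.

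Nr1h3 (chr2:91184061-91202834, minus strand), which encodes LXRα, was the only gene of the 10 to rise without overlap. It had 60.7, 62.7 and 60.8 CPM in WT and 76.2, 76.1 and 74.5 CPM in FI3OE (log2 fold change 0.32, standard error 0.037, adjusted p = 4.52e-05 in edgeR). LXRα is also made by macrophages. The 14 macrophage markers summed to 2457 to 2615 CPM in WT cultures and 2458 to 2491 CPM in FI3OE cultures, overlapping. Of these markers 4 were called higher and 3 lower. The largest changes ran both ways, with Mrc1 at -0.87, Itgam at -0.59, Fcgr1 at 0.51 and Mpeg1 at 0.49. The part of macrophage RNA in the rise of Nr1h3 was not tested.

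**Figure D3:**
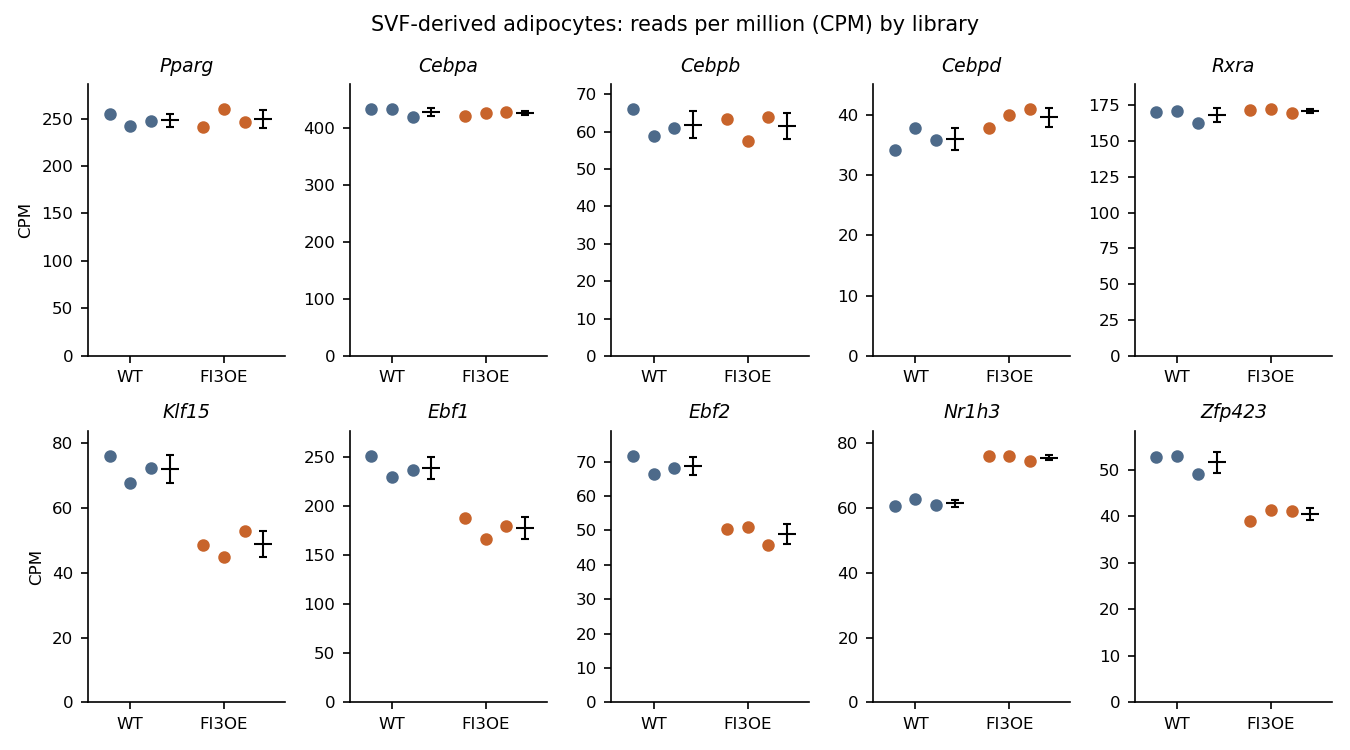
CPM of each gene in the 3 WT (blue) and 3 FI3OE (orange) libraries of SVF-derived adipocytes; points are libraries, and the bar at the side is the mean with its SD. FI3OE lies wholly below WT for Klf15, Ebf1, Ebf2 and Zfp423 and wholly above it for Nr1h3. The share of all genes separate in this way is not given here.

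The total of Pparg was not called, but its transcripts differed in share. Pparg2, the form largely restricted to fat, starts from its own promoter and has 505 codons, whereas Pparg1 starts upstream and has 475, so that Pparg2 is 30 amino acids longer at its amino terminus. In GENCODE, Pparg-201 is Pparg2 and Pparg-202 and Pparg-204 encode Pparg1. Their promoters, as the 250 and 193 bases upstream of the first annotated start (RefSeq, GRCm38.p6, plus strand, chr6:115421816-115422065 and chr6:115362099-115362291), are shown because they lie before Pparg2 and before Pparg-204, the more abundant of the Pparg1 transcripts in the cultures, with matches to a C/EBP motif in capitals.
Pparg-201: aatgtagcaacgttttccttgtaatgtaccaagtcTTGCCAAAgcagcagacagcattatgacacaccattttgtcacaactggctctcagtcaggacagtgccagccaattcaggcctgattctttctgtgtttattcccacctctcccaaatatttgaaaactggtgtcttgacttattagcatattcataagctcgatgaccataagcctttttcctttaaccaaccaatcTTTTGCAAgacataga
Pparg-204: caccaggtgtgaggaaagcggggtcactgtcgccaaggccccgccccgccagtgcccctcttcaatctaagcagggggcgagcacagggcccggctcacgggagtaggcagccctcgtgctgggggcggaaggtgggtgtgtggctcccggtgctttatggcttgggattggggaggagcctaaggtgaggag
The motif searched was TTGCNNAA on both strands, which 10.8% of the 32851 promoters in the table hold. Those promoters ran from 250 bases before to 50 after the start. The Pparg-201 promoter held it at 2 places and the other at none.

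Pparg-201 had 120.5, 126.1 and 137.4 TPM in WT cultures and 157.8, 168.3 and 164.1 TPM in FI3OE cultures. Pparg-202 and Pparg-204 together ran the other way, with 141.2, 122.3 and 118.5 TPM in WT and 85.6, 93.5 and 87.7 TPM in FI3OE. Pparg-201 thus made up 46.1, 50.8 and 53.7% of these 3 transcripts, the full-length coding ones, in WT and 64.8, 64.3 and 65.2% in FI3OE, without overlap (50.2% ± 3.86 and 64.8% ± 0.443, SD, n = 3 each). With 3 libraries a side the smallest p of an exact two-sided permutation test is 0.1. Main-transcript shares of Rxra, Ebf1, Ebf2, Nr1h3 and Zfp423 were also compared in the cultures, and each overlapped between the groups. In edgeR over 47647 transcripts, of which 5.47% were called, 4 of the 40 tested transcripts of the 10 genes were called, 1 higher and 3 lower. The higher one was Pparg-201 (log2 fold change 0.45, adjusted p = 0.0261 in edgeR), and its call held in 1 of 6 fits that left out a library (adjusted p 0.0288 to 0.104), with the log2 fold change between 0.40 and 0.53. Pparg-202 had a log2 fold change of -0.78 (adjusted p = 0.0824 in edgeR) and Pparg-204 of -0.26 (adjusted p = 0.395 in edgeR). The lower ones were Ebf1-201, Ebf2-202 and Klf15-203, with log2 fold changes of -0.41, -0.55 and -1.18. Of 6 fits that left out a library, Ebf1-201 was called in 6, Ebf2-202 in 2 and Klf15-203 in 1. Transcripts of 1 gene share most of their sequence, and the error of the authors' split between them is not in these files.

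**Figure D4:**
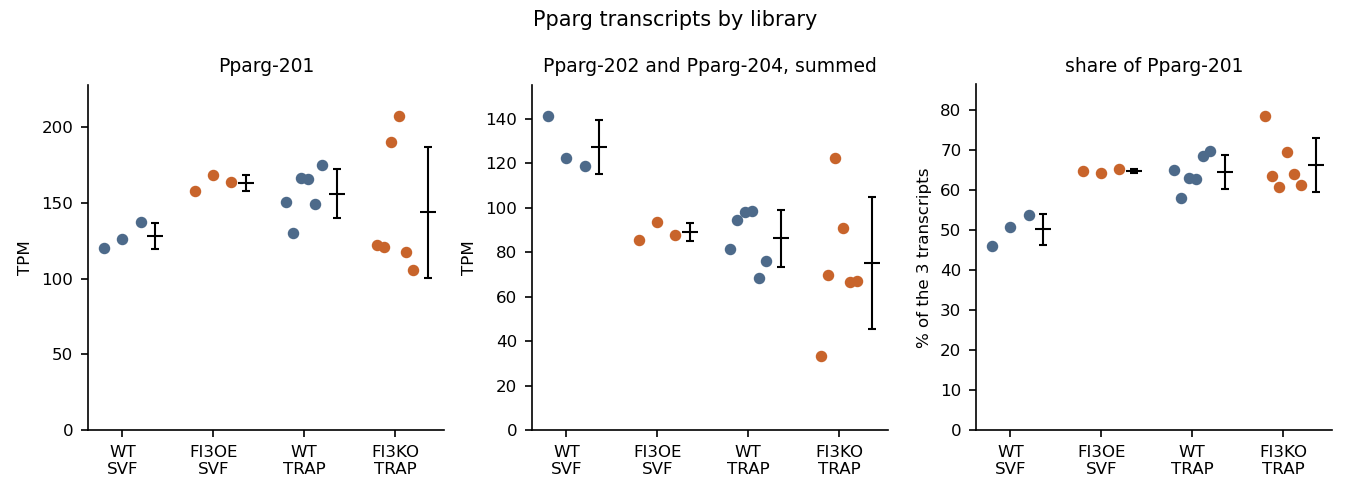
TPM of Pparg-201, summed TPM of Pparg-202 and Pparg-204, and the share of Pparg-201 among the 3, by library; bars are means with SD. FI3OE cultures (64.3 to 65.2%) lie above WT cultures (46.1 to 53.7%), while the TRAP groups overlap.

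Genes that work with these factors were counted from lists. Among 28 target genes of PPARγ and C/EBPα, 12 were higher and 12 lower in FI3OE (median log2 fold change 0.07), against 37% called of all genes. Among target genes with a mean log2 CPM of 1 or more, the largest changes were those of Pck1 (-1.17), for glyceroneogenesis, Pdk4 (-0.61), Retn (0.58) and Agpat2 (0.54), an enzyme of triglyceride synthesis. Of 11 tested family relatives 2 were higher and 5 lower, led by Ppara (log2 fold change -1.12), the PPAR of fatty acid oxidation, and Ddit3 (-0.93), a C/EBP family member induced by stress. Of 16 coactivators and corepressors 2 were higher and 8 lower, with Ppargc1b (-0.88) and Lpin1 (-0.66) changing most. Of 10 other factors that promote adipogenesis 2 were higher and 4 lower, with Klf9 at -0.53 and Klf4 at 0.51. Of 12 tested anti-adipogenic regulators 3 were higher and 2 lower, with Wnt5a at 0.36 and Klf7 at 0.27. Of the 10 LXR target genes 4 were higher and 4 lower, Scd1 at -0.91 and Lpcat3 at 0.53 going in opposite directions beside the rise of Nr1h3 itself. In the fit of all 18 libraries Pck1, Pdk4, Retn, Klf4 and Klf7 lost their calls (adjusted p 0.101 to 0.412 in edgeR).

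The second comparison asks what the loss of Irf3 from adipocytes does to the same genes in eWAT of mice on HFD. Cebpa and Ebf2 rose, Zfp423 was 2.02-fold lower and Nr1h3 fell slightly, while Pparg, Rxra, Klf15, Ebf1, Cebpb and Cebpd were not called over all 12 libraries. Thus 4 of 10 genes were called, 2 higher and 2 lower, where 37.4% of all 13624 genes tested were called, 19.1% higher and 18.3% lower. Zfp423 was the 1 gene past the fold-change cutoff, which held for 6.61% of all genes. The median log2 fold change of the 10 was -0.06 and that of all genes 0.02. Within replicates 3 to 6 alone 5 of the 10 were called, against 50.6% of all genes, and within replicates 1 and 2 alone 1 was, Cebpd, against 3.56%.

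**Figure D5:**
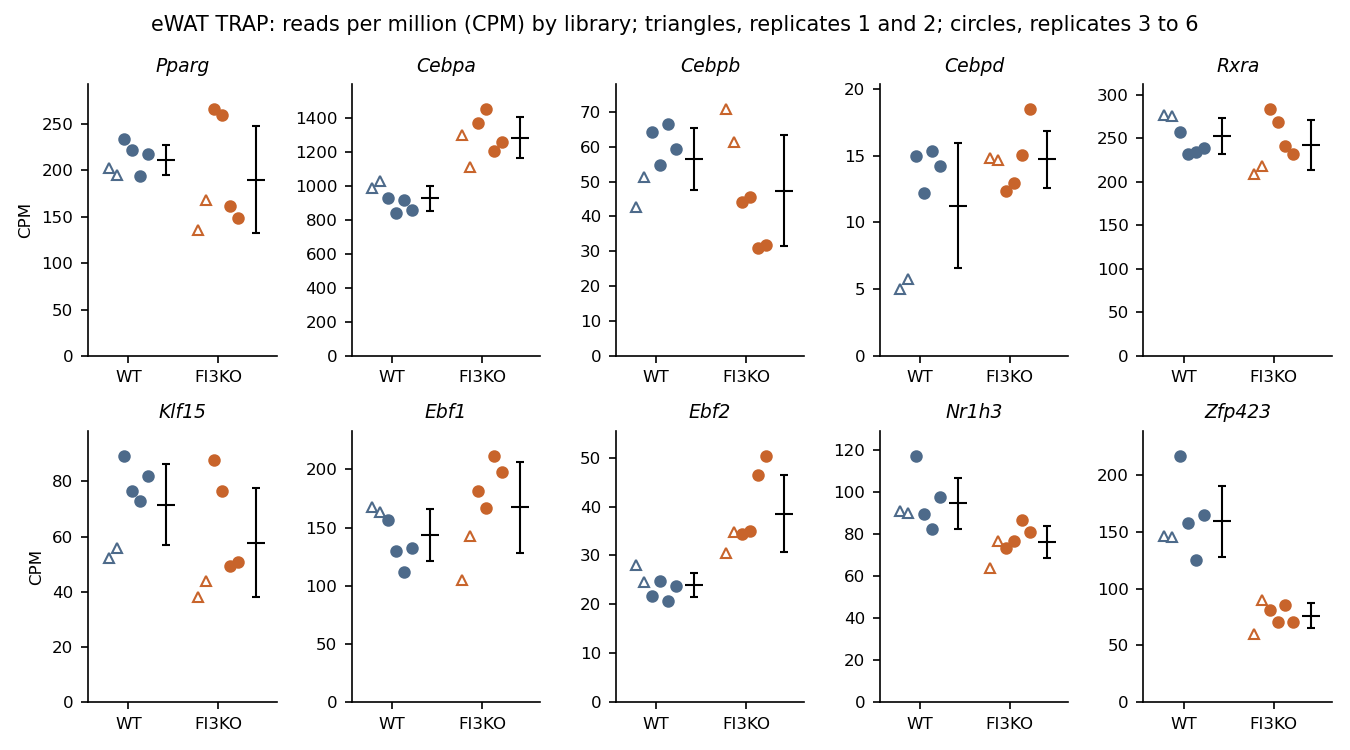
CPM of each gene in the 6 WT (blue) and 6 FI3KO (orange) TRAP libraries; open triangles are replicates 1 and 2, filled circles replicates 3 to 6, and the bar is the mean with its SD. The groups are separate for Cebpa, Ebf2 and Zfp423, and the difference between FI3KO and WT was not the same in triangles and circles for Cebpb, Cebpd, Ebf1 and Rxra. The share of all genes with separate groups is not given here.

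Cebpa, the most abundant of the 10, had a lowest, median and highest value of 838.8, 921.5 and 1030 CPM in WT and 1111, 1278 and 1451 CPM in FI3KO. All FI3KO libraries lay above all WT libraries (log2 fold change 0.51, standard error 0.078, adjusted p = 0.00048 in edgeR). The value was 0.62 within replicates 3 to 6 (adjusted p = 4.49e-05 in edgeR) and 0.32 within replicates 1 and 2 (adjusted p = 0.123). Its main transcript, Cebpa-201, gave the same size of change (log2 fold change 0.51, adjusted p = 0.00407 in edgeR over 32213 transcripts, of which 9.54% were called), and Cebpa-201 and Zfp423-202 were the 2 called of 34 transcripts of the 10 genes tested. Without FI3KO replicate 1 Ebf2-202 and Ebf2-203 were called too, and without WT replicate 1 Rxra-206 was. Within replicates 3 to 6 there were 8 calls, 6 higher and 2 lower. Calls over all genes rose there too, to 50.6% from 37.4%. The share of all transcripts called in that set is not given here, so the 8 calls are not a result about these genes.

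Pparg did not follow Cebpa. It had 194.3, 210.3 and 233.4 CPM in WT (lowest, median and highest) and 135.9, 164.8 and 266.1 CPM in FI3KO (log2 fold change -0.11, standard error 0.15, adjusted p = 0.584 in edgeR). FI3KO replicates 3 and 4, at 266.1 and 259.8 CPM, were above every WT library, and the other 4 FI3KO libraries, at 135.9 to 168.1 CPM, below every WT library. Pparg-201 made up 57.9 to 69.7% of its 3 coding transcripts in WT and 60.9 to 78.5% in FI3KO, overlapping between the genotypes. Rxra overlapped, at 231.9, 247.9 and 277.3 CPM in WT and 209.2, 236.2 and 283.5 CPM in FI3KO (log2 fold change -0.02, standard error 0.077, adjusted p = 0.880 in edgeR).

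The genes whose levels followed Pparg most closely over the 12 TRAP libraries, after the group means were removed, were Tkt (Pearson r 0.979), Kank2 (0.972) and Bhlhe40 (0.968), out of 8687 genes ranked. For Cebpa they were Ndufs7 (0.970), Uqcrb (0.962) and Bcl2l1 (0.946). Among the 10 genes the closest pair was Pparg and Klf15 (r 0.873), then Nr1h3 and Zfp423 (0.848) and Ebf1 and Ebf2 (0.759), while Cebpb ran opposite to Ebf2 (-0.918) and Ebf1 (-0.879). These are descriptions over 12 libraries that share preparation, depth and the sets named above.

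Zfp423 changed most. It had 125.3, 151.7 and 216.6 CPM in WT (lowest, median and highest) and 60.3, 75.8 and 89.7 CPM in FI3KO. The groups were fully separate, and the log2 fold change was -1.01 (adjusted p = 0.00013 in edgeR, standard error 0.12). Within replicates 3 to 6 the log2 fold change was -1.06 (adjusted p = 0.00014 in edgeR) and within replicates 1 and 2 it was -0.90 (adjusted p = 0.0513). In replicates 1 and 2 Zfp423 had 146.0 and 145.2 CPM in WT and 60.3 and 89.7 CPM in FI3KO. The summed preadipocyte and fibroblast markers, mostly Col1a1, overlapped between the genotypes in these replicates. In replicates 3 to 6 the sums were lower in FI3KO, as given above. The part of these markers in this result was not tested. For Zfp423 no difference of the genotype effect between the sets was called (log2 difference -0.16, adjusted p = 0.671 in edgeR).

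Zfp423 has annotated coding transcripts from starts that lie far apart. Zfp423-202, from the upstream start and with 3876 coding bases, had 80.7 ± 21.3 TPM in WT and 34.0 ± 6.61 TPM in FI3KO (SD, n = 6 each; log2 fold change -1.17, adjusted p = 0.00347 in edgeR), and was called in each of 12 fits that left out a library. The shorter Zfp423-203 (3501 coding bases) had 7.86 ± 7.80 and 7.45 ± 2.49 TPM (log2 fold change -0.01, standard error 1.07), too variable to show a change or its absence. The share of Zfp423-202 in the gene was 75.8% ± 11.9 in WT and 66.4% ± 7.60 in FI3KO, which overlapped (exact two-sided permutation test, p = 0.134, 1 of 6 such shares tested). The 250 bases upstream of each start (RefSeq, GRCm38.p6, minus strand, chr8:87959596-87959845 and chr8:87804440-87804689) are shown because the levels of these transcripts differ, with the C/EBP motif TTGCNNAA in capitals. Another match, 22 bases after the Zfp423-202 start, lies beyond the bases shown.
Zfp423-202: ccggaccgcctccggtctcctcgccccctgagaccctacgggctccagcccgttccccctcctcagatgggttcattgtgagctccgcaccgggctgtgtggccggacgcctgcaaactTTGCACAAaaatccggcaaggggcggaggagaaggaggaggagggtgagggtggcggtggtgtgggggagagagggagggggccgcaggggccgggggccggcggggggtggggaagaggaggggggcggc
Zfp423-203: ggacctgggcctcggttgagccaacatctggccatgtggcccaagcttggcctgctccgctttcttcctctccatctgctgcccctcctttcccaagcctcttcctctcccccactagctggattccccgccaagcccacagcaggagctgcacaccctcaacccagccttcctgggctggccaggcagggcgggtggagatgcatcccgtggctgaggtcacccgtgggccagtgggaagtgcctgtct
Of 8 of the 10 genes, 14 promoters from 250 bases before to 50 after the start were in the table. An interferon-stimulated response element, the kind of site IRF proteins bind, was searched on both strands as GAAA, any 2 bases and GAAA again. It was found in 1 of them, 155 bases before a RefSeq start inside Ebf1 that lies near non-coding transcripts (Ebf1-204 and Ebf1-207) and downstream of the start of the coding ones, and in 3.44% of all promoters.

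Ebf2, low in these adipocytes, had 20.8, 24.2 and 28.0 CPM in WT (lowest, median and highest) and 30.5, 34.8 and 50.4 CPM in FI3KO. All FI3KO libraries lay above all WT libraries (log2 fold change 0.73, standard error 0.12, adjusted p = 0.00085 in edgeR). The log2 fold change was 0.91 within replicates 3 to 6 (adjusted p = 0.00035 in edgeR) and 0.37 within replicates 1 and 2 (adjusted p = 0.0994). The part of the marker sums given above in this result was not tested. Ebf1 overlapped over all 12 libraries, at 111.8, 144.9 and 168.0 CPM in WT and 105.1, 174.1 and 211.8 CPM in FI3KO (log2 fold change 0.26, standard error 0.15, adjusted p = 0.183 in edgeR), but was called without FI3KO replicate 1, its lowest library (log2 fold change 0.35, adjusted p = 0.0426 in edgeR). Within replicates 3 to 6 it was separate, at 111.8 to 157.0 and 166.6 to 211.8 CPM, and was called (log2 fold change 0.56, adjusted p = 0.00136 in edgeR), whereas within replicates 1 and 2 it had 168.0 and 163.5 CPM in WT and 105.1 and 142.9 CPM in FI3KO.

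Nr1h3 had 82.6, 90.8 and 117.5 CPM in WT and 64.1, 76.9 and 86.7 CPM in FI3KO. Of the FI3KO libraries 5 lay below every WT library (log2 fold change -0.26, standard error 0.080, adjusted p = 0.0217 in edgeR). The call was lost without WT replicate 3, the highest library (log2 fold change -0.20, adjusted p = 0.0512), and within replicates 3 to 6 (adjusted p = 0.0720), with the direction kept. Macrophage markers were lower in FI3KO replicates 3 to 6, as given above, and their part in this result was not tested. Klf15 had 52.2, 74.9 and 89.4 CPM in WT and 38.2, 50.1 and 87.8 CPM in FI3KO (log2 fold change -0.27, standard error 0.19, adjusted p = 0.286 in edgeR), and its 2 highest FI3KO libraries were replicates 3 and 4, as for Pparg.

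The early factors split by replicate set. Cebpd had 4.98 and 5.77 CPM in WT replicates 1 and 2 and 12.2 to 15.4 CPM in WT replicates 3 to 6, while FI3KO had 14.7 and 14.8 CPM in the former and 12.3 to 18.5 CPM in the latter. The log2 fold change was 0.45 over all libraries (standard error 0.25, adjusted p = 0.176 in edgeR), 1.51 within replicates 1 and 2 (adjusted p = 0.0107 in edgeR) and 0.10 within replicates 3 to 6 (adjusted p = 0.550 in edgeR). Cebpb had 42.7 and 51.4 CPM in WT and 70.8 and 61.5 CPM in FI3KO in replicates 1 and 2, but 54.9 to 66.6 CPM in WT and 30.8 to 45.5 CPM in FI3KO in replicates 3 to 6. Over all libraries it overlapped (log2 fold change -0.20, standard error 0.20, adjusted p = 0.459 in edgeR), with an offset for transcript length it was called lower (log2 fold change -0.39, adjusted p = 0.0460 in edgeR), and within replicates 3 to 6 it was lower in FI3KO (log2 fold change -0.65, adjusted p = 0.00158 in edgeR). Tmem189, which overlaps Cebpb on the other strand, had 58.7 CPM in WT and 45.7 in FI3KO on average.

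The difference of the FI3KO effect between the sets was tested as an interaction in edgeR, which called 26.5% of all genes and 4 of the 10. WT replicates 1 and 2, the closest pair of TRAP libraries of 1 genotype, counted as 2 libraries in it. The interaction was not fitted with this pair as 1 library. The effect was lower in replicates 3 to 6 for Cebpd (log2 difference -1.41, adjusted p = 0.0009) and Cebpb (-1.19, adjusted p = 0.00194), and higher for Ebf1 (0.92, adjusted p = 0.00445) and Rxra (0.45, adjusted p = 0.00784). For Cebpa (0.31, adjusted p = 0.0951) and Ebf2 (0.55, adjusted p = 0.0863) no difference was called over all libraries. It was called for Cebpa without FI3KO replicate 1 (0.46, adjusted p = 0.0280) and for Ebf2 without FI3KO replicate 3 or 4 (0.65 and 0.64, adjusted p = 0.0406 and 0.0437). The labels name no batch, so what sets replicates 1 and 2 apart was not tested.

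Of the 28 target genes of PPARγ and C/EBPα, 8 were higher and 5 lower in FI3KO (median log2 fold change 0.09), against 37.4% called of all genes. Among those with a mean log2 CPM of 1 or more, the largest changes were those of Cfd (1.83), which encodes adipsin, Lep (-1.63), which encodes leptin, and Hcar1 (1.47), the lactate receptor. Of 10 tested family relatives 2 were higher, Cebpg (0.45) and Rxrb (0.28), and 2 lower, Ddit3 (-0.79) and Ppard (-0.32). Of 10 tested anti-adipogenic regulators 2 were higher, Nr2f2 (1.15), a nuclear receptor that represses Pparg, and Tcf7l2 (0.64), and 1 lower, Wnt5a (-0.28). Of 9 tested other pro-adipogenic factors 2 were higher, Nr3c1 (0.45), the glucocorticoid receptor, and Creb1 (0.39), and 2 lower, with Klf4 at -1.27. Of the 10 LXR target genes 3 were higher, with Scd1 at 0.77 and Apoe at 0.71, and 2 lower, Pltp at -1.24 and Lpcat3 at -0.40. In replicates 1 and 2 alone Klf4, Pltp, Apoe, Nr3c1 and Tcf7l2 had the opposite sign, and of the other list genes named here Lep, Hcar1 and Scd1 kept their call (log2 fold changes -0.85, 0.77 and 0.55). Cfd was at 0.14, Nr2f2 at 0.26 and Ddit3 at -0.099 there, none of them called. Ppard lost its call without FI3KO replicate 4 or 6 or WT replicate 3 or 6, and Pltp without WT replicate 3, 4 or 6, with adjusted p of 0.052 to 0.0813 in edgeR. Klf4 lost its call with an offset for transcript length (log2 fold change -0.86, adjusted p = 0.18 in edgeR).

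Set side by side, the experiments share no library. Ebf2 fell with active IRF3 (log2 fold change -0.47) and rose without Irf3 (0.73), and Nr1h3 rose (0.32) and fell (-0.26). Zfp423 fell in both (-0.33 and -1.01). Ebf1 fell with active IRF3 (-0.41) and was not called without Irf3 over all libraries (0.26), with opposite signs in the replicate sets. Klf15 was called in the cultures alone (-0.54 and -0.27) and Cebpa in TRAP alone (0.01 and 0.51). Pparg and Rxra were called in neither over all libraries. Depot, culture and diet differ between the experiments, and the difference between the effects was not tested.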

How the data were processed

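The authors deposited, for each of 18 libraries, 1 table that gives per transcript the estimated counts (expected counts, not normalized) and TPM made by Salmon 1.4.0, with effective lengths. Per the study's methods, reads were trimmed with fastp and Salmon corrected for sequence-specific and GC bias. RNA had been depleted of ribosomal RNA, and double-stranded cDNA went into Nextera XT libraries, which do not mark strand. The GENCODE M21 annotation of GRCm38 served to assign transcripts to genes, by identifier without version. It is an older release than the one used for quantification, and 117850 of 118733 transcripts matched. The rest held 0.375 to 1.08% of reads. Counts were summed by gene and rounded. Deposited TPM were summed by gene for levels and taken as given for transcripts. Libraries held 21541334 to 40490283 reads, with no molecular identifiers.

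The 2 experiments were fitted separately in R 4.3.3 with edgeR 4.0.16 (filterByExpr, TMM, quasi-likelihood test without covariates, Benjamini-Hochberg adjustment). The study's fold-change cutoff of 1 on the log2 scale was counted separately from the adjusted p of 0.05 or less. Groups came from the sample labels, and the fit was tested on simulated data. Of 200 genes given a log2 fold change of 0.5, the SVF fit recovered 62%, with 18 false calls, and TRAP 40.5%, with 7. At 1.5 these were 86.5% with 21 and 90.5% with 9. False calls made up a larger share of all calls than 0.05 in each case except TRAP at 1.5. The simulated spread was taken from the same kind of fit. Transcript shares were compared by exact permutation tests in scipy 1.17.1.

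The 10 genes, the lists and the split of the TRAP libraries were chosen with earlier results of these data known. From a list, up to 4 called genes of mean log2 CPM 1 or more were eligible to be named, by size of change, and the genes named are the first of these. The coactivator and corepressor list is not reported here for TRAP. For Ddit3 the more abundant of its identifiers was used. The 3 genes most like Pparg and Cebpa were sought at a mean log2 CPM of 3 or more, with 1 added to CPM. Alternatives were DESeq2 1.42.0 size factors and Wald test, other filters on low counts, a length offset, robust dispersions, 1 fit with all 18 libraries, no mitochondrial or rRNA-overlapping genes, a replicate block, single libraries left out, and the replicate sets. WT TRAP replicates 1 and 2 as 1 library and the fit over transcripts were added after seeing the data.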

Additional observations from a re-analysis of the deposited data

Results flagged for a closer look

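In 4 of the 10 genes the effect of FI3KO in eWAT TRAP differed between replicates 3 to 6 and replicates 1 and 2. The interaction test in edgeR that called them called 26.5% of all genes. The log2 difference was -1.41 for Cebpd, -1.19 for Cebpb, 0.45 for Rxra and 0.92 for Ebf1. For Cebpd the WT libraries set this apart, since WT replicates 1 and 2 had 4.98 and 5.77 CPM and the other 10 TRAP libraries 12.2 to 18.5 CPM. For Cebpb, Ebf1 and Rxra libraries of both genotypes moved in opposite directions between the sets. No single library lay far enough from the rest of its group to stand out in any of the 20 groups of 6 libraries examined.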

How the results depend on the processing

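With the fold-change cutoff, 583 genes and 0 of the 10 were called in the SVF experiment, and 901 and 1 in TRAP. A fit of all 18 libraries gave 1642 genes and 0 of the 10 in the SVF experiment, where the spread of the TRAP libraries enters the estimate, and the length offset gave 3800 genes. Replicates 1 and 2 alone, with fewer libraries, gave 500 genes and 1 of the 10 in TRAP. Leaving out 1 library at a time gave 4949 to 5197 genes and 5 to 6 of the 10 in the SVF experiment. In TRAP it gave 3937 to 5343 genes and 3 to 5 of the 10. For the difference between replicate sets it gave 2033 to 3874 genes and 4 to 5 of the 10. No main-transcript share passed the test in TRAP, either as shares of estimated reads or with a library left out.

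Some signs changed. In the SVF experiment Cebpb was -0.0088 with the length offset, and with a library left out Cebpb ranged from -0.021 to 0.054, Pparg from -0.016 to 0.054 and Cebpa from -0.0030 to 0.020. In TRAP Rxra was 0.14 in replicates 3 to 6, 0.0092 with WT replicates 1 and 2 as 1 library, and -0.0599 to 0.010 with a library left out. In replicates 1 and 2 alone Cebpb was 0.55, Ebf1 -0.36, Apoe -0.059, Klf4 0.16, Nr3c1 -0.18, Pltp 0.26 and Tcf7l2 -0.069. Irf3 was 0.71 in TRAP with the length offset. The cause was not tested. Cebpd lost its call in 7 of 15 alternatives in the SVF experiment (adjusted p 0.0204 to 0.853 over all 15). Nr1h3 lost its call in 5 of 25 in TRAP (0.00459 to 0.107 over all 25). Of 250 values of the 10 genes in TRAP 229 kept direction and side of the threshold, and 131 of 150 in the SVF experiment.

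Samples of the same number did not vary together (correlations of -0.399 to 0.0748 in TRAP and -0.0326 to 0.0541 in the SVF experiment). With the replicate block 3632 genes and 3 of the 10 were called in TRAP, Nr1h3 losing its call (adjusted p = 0.0731 in edgeR), as did Irf3 (0.0538), Nr3c1 (0.0872) and Pltp (0.0931), and 5658 genes and 6 of the 10 in the SVF experiment. Each of the 10 genes had at least 150 reads in every library, the fewest for Cebpd in WT TRAP replicate 1.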
